A study of Mus musculus with 2 samples.

Results

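The 9 genes described here are the mitochondrially encoded respiratory chain genes mt-Nd1, mt-Nd2, mt-Nd4, mt-Nd5, mt-Co1, mt-Co2, mt-Co3, mt-Atp6 and mt-Cytb. They were chosen by name, as the rows whose Ensembl identifier without its version maps to these symbols, and are 9 of 54146 identifiers in the count tables. All 9 were found and none was removed by a minimum. They were measured in 2 inDrop single-cell libraries of mouse embryonic stem (ES) cells, 1 of the wild-type clone a2.1 (WT) and 1 of the Lin28a knockout clone a3.5 (AKO), which was made with CRISPR/Cas9. The labels call the wild-type cells untreated, while the study describes clone a2.1 as transfected, and its methods give E14 as the ES cell line wherever no other is named. The labels call both cell populations ICM-derived, and both were grown for 2 days with LIF and 2 kinase inhibitors (2i) on gelatin and mouse embryonic fibroblast (MEF) feeders, which the libraries can therefore also hold. Each genotype was a single clone and a single library, so genotype, clone, culture and library cannot be told apart, and no test was made. The 95% intervals given here cover counting error only or, for shares of cells, the sampling of cells within 1 library.

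Mitochondria carry a small circular genome that is transcribed from both strands into long precursors, from which the tRNAs between the genes are cut out to release the mRNAs. Its protein genes all encode core subunits of oxidative phosphorylation, and these are joined by many more subunits that are encoded in the nucleus and imported. The mt-Nd genes encode the membrane arm of complex I, which passes electrons from NADH to ubiquinone. Cytochrome b (mt-Cytb) is the core of complex III, mt-Co1, mt-Co2 and mt-Co3 form the catalytic core of complex IV, which reduces oxygen, and mt-Atp6 is part of the proton channel of the ATP synthase, complex V.

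In GENCODE M21 of GRCm38 all 9 genes lie on the plus strand of the mitochondrial genome and have a single exon with no annotated UTR. In order along the genome they are mt-Nd1 (ENSMUSG00000064341.1, chrM:2751-3707), mt-Nd2 (ENSMUSG00000064345.1, chrM:3914-4951), mt-Co1 (ENSMUSG00000064351.1, chrM:5328-6872), mt-Co2 (ENSMUSG00000064354.1, chrM:7013-7696), mt-Atp6 (ENSMUSG00000064357.1, chrM:7927-8607), mt-Co3 (ENSMUSG00000064358.1, chrM:8607-9390), mt-Nd4 (ENSMUSG00000064363.1, chrM:10167-11544), mt-Nd5 (ENSMUSG00000064367.1, chrM:11742-13565) and mt-Cytb (ENSMUSG00000064370.1, chrM:14145-15288). The inDrop method primes reverse transcription on poly(A), so its reads would lie toward the ends of the transcripts, though not only in the last bases. Those ends need not be the ends of the annotated genes, which hold no UTR. The last 30 bases of each gene are given next from the GENCODE M21 transcripts, with the stop codon, or the part of it that the genome encodes, in capitals.
mt-Nd1: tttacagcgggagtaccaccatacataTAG
mt-Nd2: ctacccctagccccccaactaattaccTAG
mt-Co1: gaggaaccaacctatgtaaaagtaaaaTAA
mt-Co2: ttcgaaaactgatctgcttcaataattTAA
mt-Atp6: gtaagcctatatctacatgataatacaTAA
mt-Co3: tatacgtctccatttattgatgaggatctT
mt-Nd4: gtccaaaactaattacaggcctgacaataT
mt-Nd5: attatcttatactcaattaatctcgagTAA
mt-Cytb: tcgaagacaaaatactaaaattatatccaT

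mt-Co3, mt-Nd4 and mt-Cytb ended in a single encoded T, which polyadenylation turns into a stop codon. mt-Atp6 shared its last base with mt-Co3, and mt-Nd1 and mt-Nd2 each shared 2 bases with the tRNA gene that follows. On the other strand, mt-Co1 overlapped the tRNA gene mt-Ts1 by 3 bases and mt-Nd5 overlapped mt-Nd6 by 14 bases. The strand used in counting is not given in the sources used here, so UMIs from such overlaps, and from any antisense transcript, cannot be told apart. The files counted 15 WT and 29 AKO UMIs of the 9 genes as ambiguous between genes.

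The WT library held 4329 barcodes and the AKO library 6060. A barcode with at least 500 unique molecular identifiers (UMIs) was taken as a cell, which left 1857 WT cells with 11640490 UMIs (median 6139 per cell) and 1637 AKO cells with 9354527 UMIs (median 5022). Lin28a, the targeted gene, had 1242 UMIs or 107 counts per 1000000 UMIs (CPM) in the WT library and 342 UMIs or 36.6 CPM in the AKO library. All 10 ES markers, such as Pou5f1 and Nanog, were found in both, and 46 WT and 31 AKO cells were rich in fibroblast collagen transcripts. The share of UMIs on 82 ribosomal protein (RP) genes was 10.6% and 11.5%, and that on 10 nuclear-retained long noncoding RNAs (lncRNAs) was 0.603% and 0.308%, with Malat1 at 4575 and 1832 CPM. The barcodes of each file carry serial names, so barcodes shared by the libraries could not be counted.

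Together the 9 genes held more of the UMIs in the AKO library. The WT library had 115656 UMIs on them, or 9936 CPM (interval 9878 to 9993). The AKO library had 147994, or 15821 CPM (15740 to 15901), an AKO/WT ratio of 1.59. The median ratio of all genes, over those with 50 UMIs or more in both libraries, was 1.03. The 9 genes were 72.8% of all mitochondrial UMIs in the WT and 83.6% in the AKO library, and 95.3% and 96.6% of those on the 13 mitochondrial protein genes.

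Of the complex I genes, mt-Nd1 had 1829 CPM in the WT and 2477 CPM in the AKO library, a ratio of 1.35 (1.33 to 1.38). Over all cells mt-Nd2 was the only 1 of the 9 with a lower value in the AKO library, at 1308 and 1192 CPM and a ratio of 0.911 (0.889 to 0.934). Within ranges of RP share its ratio was 0.943 (0.794 to 1.12) under 5% and 0.999 at 5 to 10%. It was 1.15 at 10 to 15% and 1.64 at 15% or more. mt-Nd4 had 1118 and 1341 CPM, a ratio of 1.20. Over all cells mt-Nd1, mt-Nd2 and mt-Nd4 lay within 1.5-fold between the libraries, as did mt-Nd5. mt-Nd5, the member with the fewest UMIs, had 253 and 271 CPM and a ratio of 1.07 (1.01 to 1.13).

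mt-Cytb, the complex III gene, had 499.98 CPM in the WT library and 1137 CPM in the AKO library, a ratio of 2.27 (2.20 to 2.35). The complex IV genes were not alike. mt-Co1 had 1570.0 and 2665 CPM, a ratio of 1.70 (1.67 to 1.73), and mt-Co2 had 1227 and 2846 CPM, a ratio of 2.32 (2.27 to 2.37). mt-Co3 stood apart from them with 766 and 1020.5 CPM and a ratio of 1.33 (1.29 to 1.37). mt-Atp6, which lies directly before mt-Co3 on the genome, had 1364 and 2872 CPM, a ratio of 2.10 (2.06 to 2.15).

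In all, 4 of the 9 genes (mt-Co1, mt-Co2, mt-Atp6 and mt-Cytb) were higher in the AKO library by at least 1.5-fold and 0 were lower by as much. Of 9835 genes with at least 200 UMIs over both libraries, 6.49% were higher and 8.47% lower by this limit. At a limit of 2-fold, 3 of the 9 genes were higher, against 1.13% of all genes. Ranked by CPM, mt-Atp6, mt-Co2 and mt-Co1 were the genes at places 16, 17 and 18 of the AKO library and at places 80, 96 and 63 of the WT library. The 4 genes made up 46.9% of the UMIs of the 9 in the WT and 60.2% in the AKO library.

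**Figure D1:**
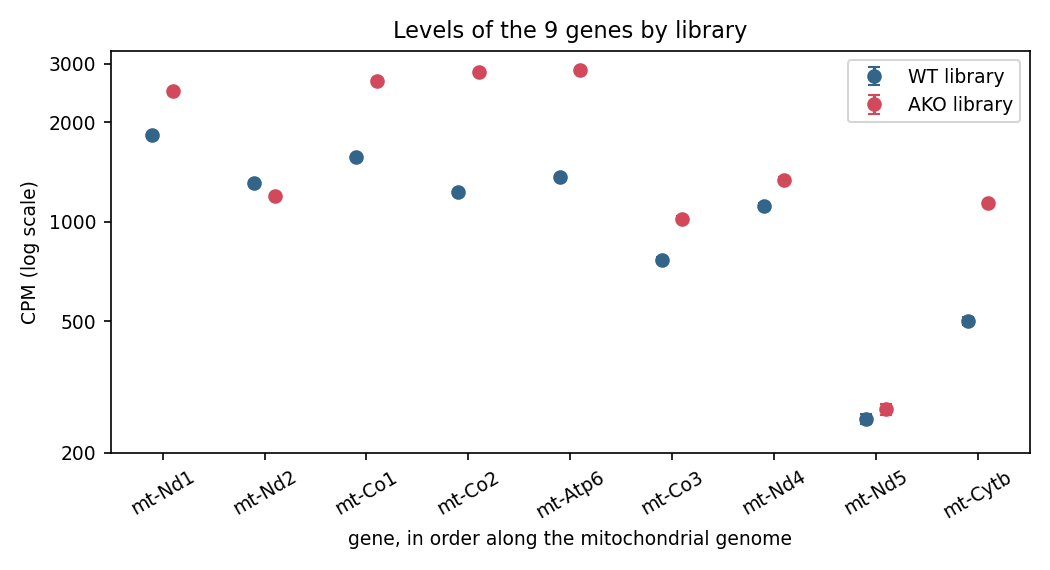
CPM of each of the 9 genes on a log scale, in order along the mitochondrial genome, in the WT (blue) and AKO (red) library, 1 library each. Points are sums over cells of at least 500 UMIs and bars are exact Poisson intervals, mostly smaller than the points; mt-Co1, mt-Co2, mt-Atp6 and mt-Cytb lie furthest apart and mt-Nd2 is the gene with the red point below the blue.

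Per kilobase of gene length, mt-Atp6 was the highest in both libraries, at 2004 CPM per kilobase in the WT and 4217 in the AKO library. In the WT library mt-Nd1 (1911), mt-Co2 (1794), mt-Nd2 (1260.3), mt-Co1 (1016), mt-Co3 (977), mt-Nd4 (812), mt-Cytb (437) and mt-Nd5 (139) followed, in CPM per kilobase, with no overlap between the counting intervals of neighbours. In the AKO library the order after mt-Atp6 was mt-Co2 (4161), mt-Nd1 (2588), mt-Co1 (1725), mt-Co3 (1302), mt-Nd2 (1149), mt-Cytb (993), mt-Nd4 (973) and mt-Nd5 (148). There the intervals of mt-Atp6 and mt-Co2 overlapped, as did those of mt-Cytb and mt-Nd4. These are levels scaled by gene length, although in a method that reads the ends of transcripts length need not set the number of UMIs.

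At least 1 UMI of mt-Co2 was found in 92.2% of WT and 93.5% of AKO cells, and of mt-Nd5 in 65.8% and 54.6%. Taken at 500 UMIs per cell, which no kept cell falls short of, the share of cells with a UMI in the WT and AKO library was 43.4% and 65.6% for mt-Co2, 45.4% and 62.7% for mt-Atp6, and 22.6% and 41.6% for mt-Cytb. It was 42.6% and 36.2% for mt-Nd2, and 13.7% and 14.4% for mt-Nd5. No cell type in these cultures lacks mitochondrial transcripts, so no share from a type without the genes could be set beside these.

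Of the 4 other protein genes and the 2 ribosomal RNA genes of the mitochondrial genome, 0 were higher by 1.5-fold in the AKO library, and mt-Atp8 was under the minimum of 200 UMIs over both libraries. mt-Nd3, also of complex I, had 193 and 213 CPM, and mt-Nd6, the protein gene of the other strand, 258 and 319 CPM, with ratios of 1.11 and 1.23. mt-Nd4l, which is joined to mt-Nd4 in a single mRNA, had 31.9 and 24.2 CPM, a ratio of 0.758. This rests on 371 and 226 UMIs, while Gm10222, its copy in the nuclear genome, had 544 and 271. That copy is 100% identical over its aligned bases, so UMIs of the pair cannot be assigned with certainty. mt-Nd3 has such a copy too, Gm28438, at 99.7% identity with 1011 and 767 UMIs. mt-Atp8, which shares its mRNA with mt-Atp6, had only 39 and 44 UMIs, and its ratio of 1.40 (0.891 to 2.22) does not separate it from 1 or from mt-Atp6. The mitochondrial ribosomal RNAs were lower in the AKO library: mt-Rnr1 of the small subunit had 1152 and 651 CPM, a ratio of 0.565 (0.548 to 0.583), and mt-Rnr2 of the large subunit 2020.2 and 1774 CPM, a ratio of 0.878 (0.861 to 0.896).

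The partners of the 9 proteins that are encoded in the nucleus were near the same level in both libraries. Of 71 such subunits of complexes I, III, IV and V, 71 passed the minimum of 200 UMIs and 0 were past 1.5-fold in either direction, with a median ratio of 1.04 beside the 1.03 of all genes. Summed, they had 14342 CPM in the WT and 14529 CPM in the AKO library. The 36 complex I subunits ranged from Ndufc2 and Ndufb6 (ratios 0.701 and 0.728) to Ndufa2 and Ndufa13 (1.35 and 1.35), accessory subunits of that complex. The 9 complex III subunits ranged from Uqcrb and Uqcrfs1 (0.847 and 0.924) to Uqcrq and Uqcr10 (1.32 and 1.34), the 11 of complex IV from Cox5a and Cox7c (0.908 and 0.913) to Cox8a and Ndufa4 (1.15 and 1.20), and the 15 of complex V from Atp5f1 and Atp5j (0.768 and 0.809) to Atp5d and Atp5g1 (1.20 and 1.37). Summed, the 9 mitochondrial genes stood at a lower level than these nuclear subunits in the WT library and at a higher one in the AKO library.

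Of 24 nuclear genes for transcription of the mitochondrial genome and maturation of its RNA, 23 passed the minimum, 1 was higher by 1.5-fold and 1 was lower, a smaller share each way than the 6.49% and 8.47% of all genes. Elac2, the enzyme that trims the end of tRNAs, had a ratio of 1.55 (1.28 to 1.87), and Polg, the mitochondrial DNA polymerase, 1.48. Fastkd1, an RNA-binding protein of mitochondria, had a ratio of 0.612 (0.490 to 0.762), and Trmt10c, part of the ribonuclease that cuts the other end of tRNAs, 0.667, which before rounding was just short of the limit. Of 7 regulators of mitochondrial biogenesis 4 passed the minimum and 0 were past 1.5-fold, from Gabpa (0.686) through Gabpb1 (1.06) and Pprc1 (1.08) to Nrf1 (1.40).

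The nuclear genome of the mouse holds copies of mitochondrial DNA, and reads from a near-identical copy cannot be assigned with certainty. A search of all GENCODE M21 transcripts found 14 copies of 8 of the 9 genes with at least 100 bases at 85% identity or more, and none of mt-Nd1. The copies had 18777 UMIs in the WT and 22989 in the AKO library, 16.2% and 15.5% of the UMIs of the 9 genes. On chromosome 1 Gm10925 (chr1:24613974-24614651), Gm28661 (chr1:24614885-24615565), Gm28437 (chr1:24613189-24613971) and Gm28439 (chr1:24611535-24612410), all on the minus strand, were 100% identical over their aligned bases to mt-Atp6, mt-Co2, mt-Co3 and mt-Nd4. Gm13340 and Gm13341, neighbours on chromosome 2 (chr2:22588103-22589647 and chr2:22587291-22587962), are full-length copies of mt-Co1 and mt-Co2, at 97.6% and 95.9% identity.

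Where the ends of gene and copy differ, counting could in principle separate them. The 30 bases aligned at the end of mt-Cytb and its copy Gm11410, and of mt-Co1 and its copy Gm11512, are shown with the differing bases in capitals. Those of mt-Co1 and Gm13340 are shown as a pair without a difference in these bases, although over 1545 aligned bases the pair was 97.6% identical.
mt-Cytb beside Gm11410: atCgaagacaaaataCtaaaattatatcca
Gm11410: atTgaagacaaaataTtaaaattatatcca
mt-Co1 beside Gm11512: ttCgAGgaaccaacctatgtaaaagtaaaa
Gm11512: ttTgGAgaaccaacctatgtaaaagtaaaa
mt-Co1 beside Gm13340: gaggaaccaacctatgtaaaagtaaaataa
Gm13340: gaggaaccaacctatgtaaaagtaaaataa

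Most copies lay on the same side of the 1.5-fold limit as the genes they resemble. Of 9 copies of the 4 genes past 1.5-fold, 8 were also past 1.5-fold, from Gm28661 at 1.54 to Gm43743, a partial copy of mt-Atp6, at 2.91, and the exception was Gm29216, a copy of mt-Co1, at 1.17. Of 5 copies of the other genes 0 were, with Gm13339, a copy of mt-Nd2, at 0.952 and Gm28437, the copy of mt-Co3, at 1.06. Of all genes compared, 6.49% were higher by this limit, so 0 of 5 does not set these copies apart. Of the copies compared at their ends, 3 had differing bases there. Gm11512, with 3 mismatches, had 40.5 and 105 CPM, a ratio of 2.59 (2.32 to 2.90) above the 1.70 of mt-Co1. Gm11410, with 2, had 37.5 and 72.4 CPM, a ratio of 1.93 (1.71 to 2.18) below the 2.27 of mt-Cytb. Gm13339, with 1, is the copy of mt-Nd2 given above. With the copies' UMIs added to each gene, which was tried after the data had been seen, the ratios were 1.72 for mt-Co1, 2.21 for mt-Co2, 2.05 for mt-Atp6, 2.25 for mt-Cytb and 0.917 for mt-Nd2. How many of these UMIs came from the nuclear copies was not tested.

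The single-cell share of UMIs on the 9 genes spread widely within each library. In the WT library it had a median of 0.973%, with 5% of cells under 0.0629% and 5% over 2.37%, and reached 15.9%. In the AKO library the median was 1.42%, the same limits were 0.122% and 6.73%, and the highest share was 45.9%. No UMI of the 9 genes was found in 10 WT and 8 AKO cells, and 1 and 15 cells had more than a 0.2 share of UMIs on all mitochondrial genes. The study's methods left out cells above a mitochondrial limit of 0.2, whereas such cells were kept here. Among cells with at least 2000 UMIs, 6.82% (interval 5.65 to 8.15) of WT and 24.5% (22.0 to 27.1) of AKO cells had 2 to 5% of their UMIs on the 9 genes. Cells with under 0.2% were also found in both libraries, 10.7% (9.26 to 12.3) of WT and 15.8% (13.7 to 18.0) of AKO cells, at median RP shares of 17.3% and 17.6%. These intervals are binomial over the cells of 1 library each and do not cover differences between cultures or clones.

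The summed level fell as the RP share of the cell rose. In the WT library it was 27989 CPM in the 92 cells with an RP share under 5%, 12899 CPM in the 1004 cells of 5 to 10%, 7729 CPM in the 547 cells of 10 to 15% and 1248 CPM in the 214 cells of 15% or more. In the AKO library it was 52078, 21741, 13443 and 2655 CPM in 249, 475, 581 and 332 cells. Each step down was the same way in both libraries, and the AKO value was the higher at each step, with ratios of 1.86, 1.69, 1.74 and 2.13. Each of these ratios is above the 1.59 of all cells. Of all cells, 214 of 1857 in the WT and 332 of 1637 in the AKO library were at 15% or more. RP share and the share on the 9 genes divide the same total of each cell, so they are not independent measures. The nuclear respiratory chain subunits went the other way, from 4352 to 19691 CPM between the lowest and the highest RP share in the WT library and from 5578 to 18359 CPM in the AKO library, so that the 9 genes had 6.43 and 9.34 times the UMIs of these subunits under 5% and 0.0634 and 0.145 times at 15% or more.

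**Figure D2:**
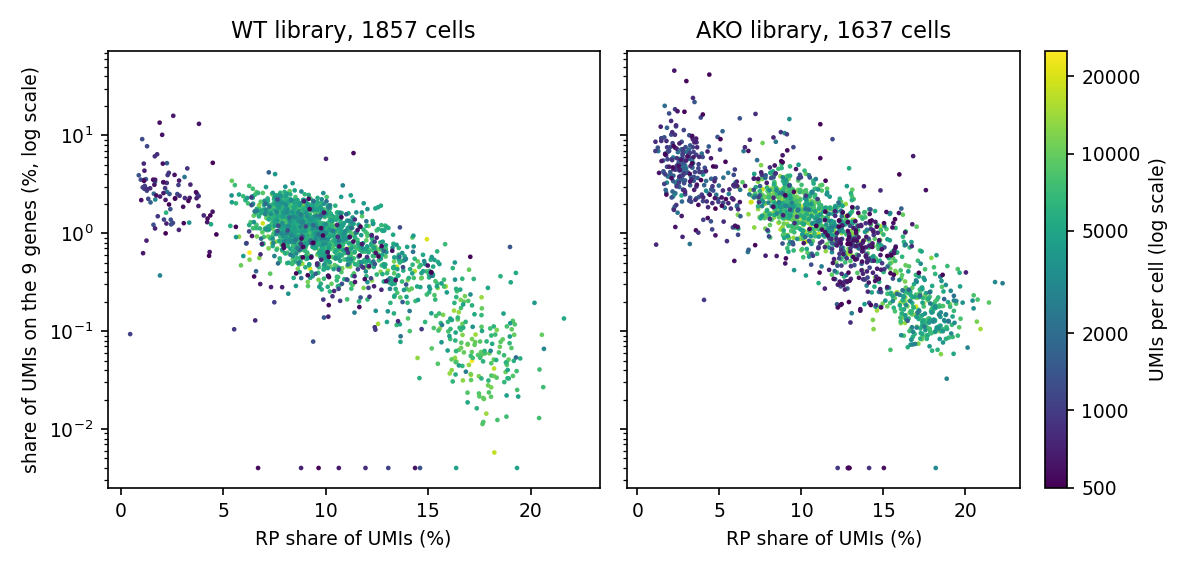
Share of UMIs on the 9 genes (log scale) against RP share for each cell of at least 500 UMIs, coloured by the cell's UMIs, in the WT (left, 1857 cells) and AKO library (right, 1637 cells). Cells with no UMI of the 9 genes, 10 and 8, are drawn at the bottom; in both libraries the share falls from the left to the right, and the cells under 5% RP at the upper left are mostly shallow (median 831.5 and 1189 UMIs).

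The cells under 5% RP were shallow, at median depths of 831.5 (WT) and 1189 (AKO) UMIs, and 8 of 92 and 17 of 249 of them were rich in collagen transcripts. The 10 ES markers summed to 1807 and 2792 CPM in them, against 4577 and 4799 CPM in the cells of 5 to 10%, and the 11 feeder markers to 11561 and 2698 CPM, against 2434 and 1399 CPM. Without collagen-rich cells the summed level under 5% RP was 2.94-fold (WT) and 3.40-fold (AKO) that of the other cells, against 2.86-fold and 3.61-fold with them, and among cells of 2000 UMIs or more it was 1.74-fold and 2.84-fold. The order along RP share was also present within cells of 5000 to 10000 UMIs, where those of 5 to 10%, 10 to 15% and 15% or more had 12937, 7919.6 and 1263 CPM in the WT library and 21277, 14248 and 2725 CPM in the AKO library. Only 2 WT cells and 1 AKO cell of that depth were under 5%.

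The genes did not move equally along RP share. Between the cells of 5 to 10% and those of 15% or more, each of the 9 genes was lower in the RP-rich cells by more than 1.5-fold in both libraries, a direction in which 44.8% of the genes compared in the WT and 41.8% of those in the AKO library lay. The summed level was 10.3-fold higher in the cells of 5 to 10% in the WT library, from 4.77-fold for mt-Co2 (1464 against 307 CPM) to 15.3-fold for mt-Atp6 (1809 against 118 CPM). In the AKO library it was 8.19-fold higher, from 4.57-fold for mt-Co2 (3192 against 698 CPM) to 14.3-fold for mt-Nd1 (3673 against 256 CPM). mt-Co2 thus had the smallest difference of the 9 in both.

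Under 5% RP mt-Co2 was again at the end of the order. Against all other cells mt-Co2 was 6.07-fold (7139 against 1176 CPM) and 7.25-fold (16806 against 2317 CPM) higher, and mt-Nd2, at the other end, 1.34-fold and 1.40-fold. In each library 8 of the 9 genes were higher by at least 1.5-fold, where 27% of the genes compared in the WT and 28.5% of those in the AKO library were. mt-Co2 was 25.5% of the UMIs of the 9 genes under 5% RP, 11.4% at 5 to 10% and 24.6% at 15% or more in the WT library, and 32.3%, 14.7% and 26.3% in the AKO library.

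**Figure D3:**
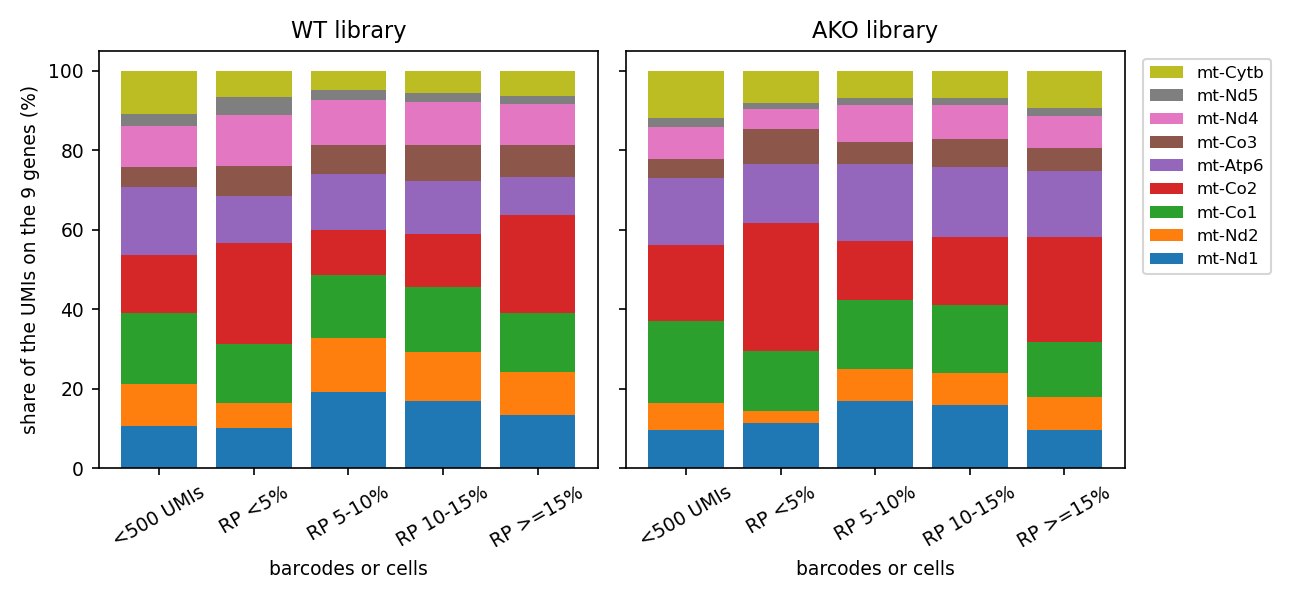
Share of each gene among the UMIs of the 9 genes (%, stacked in order along the mitochondrial genome from mt-Nd1 at the bottom) in barcodes under 500 UMIs and in cells by RP share, in the WT (left) and AKO library (right). The red band, mt-Co2, is widest at an RP share under 5% (25.5% and 32.3%) and at 15% or more (24.6% and 26.3%).

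The difference between the libraries in the makeup of the 9 genes was also present within cells of like RP share. In cells of 5 to 10% RP the AKO/WT ratio was 1.86 for mt-Co1, the lowest, to 2.47, the highest, for the 4 genes past 1.5-fold, and 0.999 to 1.48 for the other 5. At 10 to 15% RP these ranges were 1.81 to 2.28 and 1.15 to 1.62. Outside 5 to 15% RP the ranges overlapped. Under 5% mt-Nd1 and mt-Co3 reached 2.06 and 2.17, while mt-Nd5 was at 0.675. The cells under 5% were not alike in the 2 libraries. Their feeder markers summed to 11561 CPM in the WT and 2698 CPM in the AKO library, and their ES markers to 1807 and 2792 CPM. The part of feeder cells in these ratios was not tested. At 15% or more each of the 9 genes was over 1.5, with mt-Nd1 the lowest at 1.53. There mt-Nd5 was at 2.31 (1.59 to 3.40), on 40 WT and 112 AKO UMIs. The 4 genes were named by their ratio in the same cells, so their place in these groups is a description and no check of it.

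**Figure D4:**
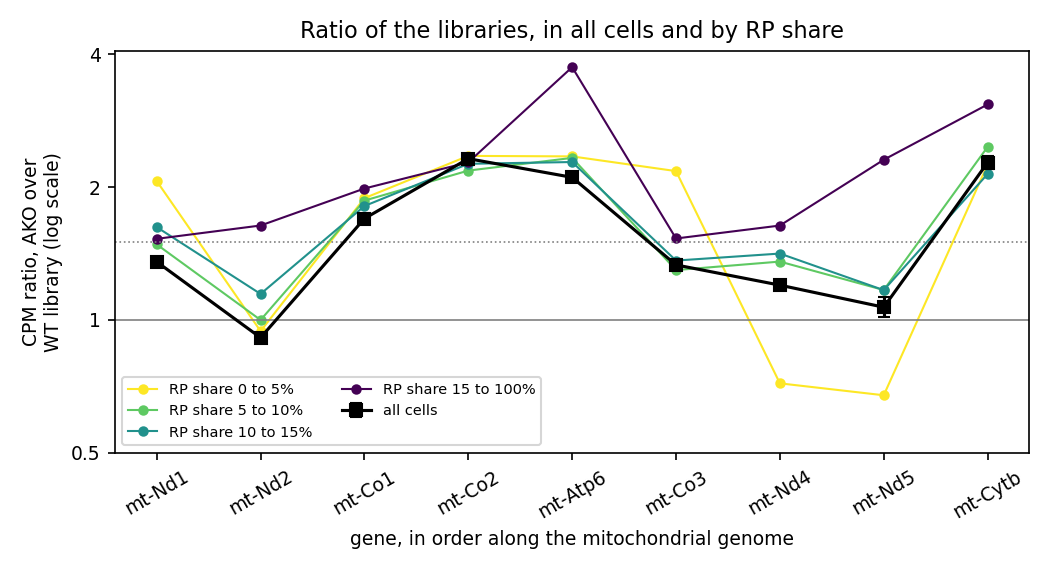
Ratio of CPM, AKO over WT library (log scale), for each gene in order along the mitochondrial genome, in all cells (black squares, with counting intervals) and in cells of 4 ranges of RP share (coloured points), with grey lines at 1 and 1.5. mt-Co1, mt-Co2, mt-Atp6 and mt-Cytb are over 1.5 in all 4 ranges, while mt-Nd2, mt-Nd4 and mt-Nd5 are under 1 in cells under 5% RP. At 15% RP or more each of the 9 genes is over 1.5.

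Along nuclear lncRNA share the level of the 9 genes rose. In the 25% of cells with the lowest share they had 5099 CPM in the WT and 8366 CPM in the AKO library, and in the 25% with the highest 13169.7 and 27979 CPM, 2.58-fold and 3.34-fold higher. The 9 genes moved more evenly here than along RP share, from 2.26-fold (mt-Cytb) to 3.08-fold (mt-Nd5) in the WT and from 2.79-fold (mt-Cytb) to 3.83-fold (mt-Co3) in the AKO library. All 9 were past 1.5-fold in each library, where 30.9% and 31.8% of the genes compared were. The RP share fell along the same order, from medians of 13.3% to 8.13% in the WT and from 14.6% to 4.58% in the AKO library. Within cells of 5000 to 10000 UMIs and 5 to 10% RP the lowest and the highest 25% had 12163 and 13512 CPM in the WT and 19221 and 22838 CPM in the AKO library.

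By depth, the level was highest in shallow cells. Cells of 500 to 2000 UMIs were 1.75-fold higher in the summed level than cells of 5000 UMIs or more in the WT and 2.43-fold higher in the AKO library. In each library 7 of the 9 genes were higher by at least 1.5-fold, where 17.4% and 19.3% of the genes compared were, and mt-Co2 had the largest difference, 3.24-fold and 4.61-fold, while mt-Nd2 had the smallest, with values of 0.941 and 1.13. In the AKO library the level reached 39151 CPM in cells of 1000 to 2000 UMIs, in which the median RP share was 4.50%, against 8.43% in the WT cells of that depth, which had 15143 CPM. Within matched depth the AKO/WT ratio was over 1 in every group, at 1.67 (1.59 to 1.76) in cells of 500 to 1000 UMIs, 2.59 (2.44 to 2.74) at 1000 to 2000, 1.40 (1.37 to 1.43) at 2000 to 5000, 1.32 (1.31 to 1.34) at 5000 to 10000 and 1.84 (1.81 to 1.87) at 10000 UMIs or more. mt-Co2, mt-Atp6 and mt-Cytb were past 1.5-fold in each of these groups. mt-Co1 was short of it at 2000 to 5000 (1.45) and 5000 to 10000 UMIs (1.40), and at 1.99 in the deepest cells. mt-Nd2 changed direction, with 0.667 and 0.832 in those groups but 1.38 (1.11 to 1.74) at 1000 to 2000 and 1.19 (1.13 to 1.25) at 10000 UMIs or more. Its ratio was also over 1 at 10 to 15% RP (1.15) and at 15% or more (1.64).

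**Figure D5:**
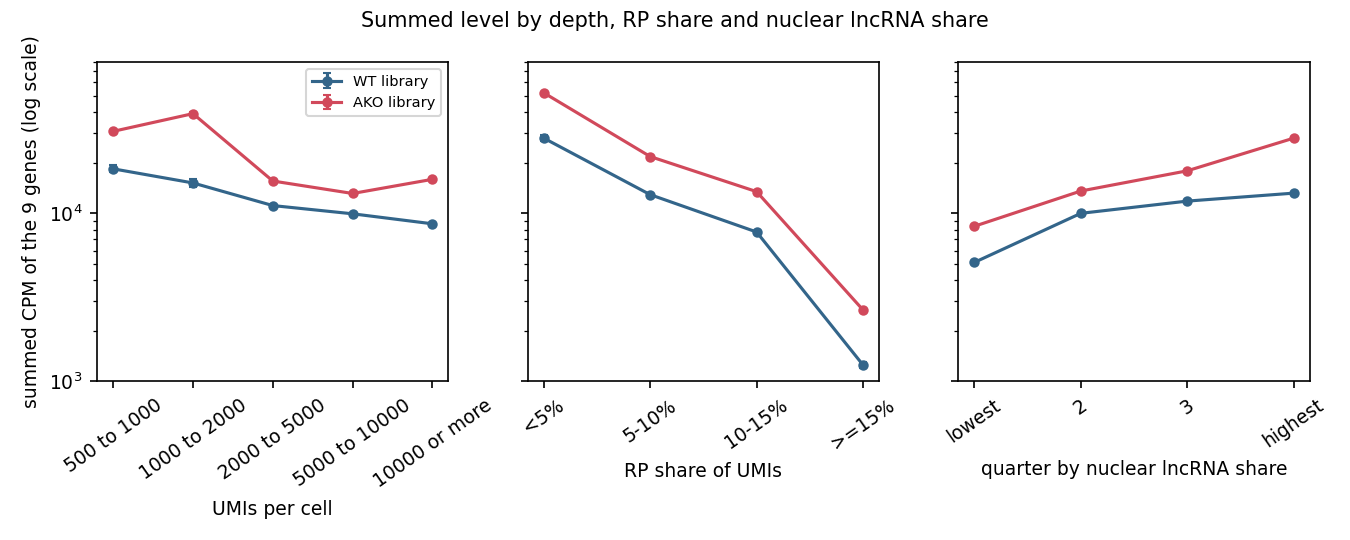
Summed CPM of the 9 genes (log scale) in the WT (blue) and AKO (red) library by UMIs per cell (left), RP share (middle) and nuclear lncRNA share (right, 4 groups of cells of equal size from the lowest to the highest), with exact Poisson intervals smaller than the points. The level falls with RP share and rises with lncRNA share in both libraries, and the red points lie above the blue in every group.

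Among cells of like depth the 9 genes varied together. Over the 1042 WT and 507 AKO cells of 5000 to 10000 UMIs, the coefficient of variation of the summed share beyond counting error was 0.588 and 0.775, against 0.218 and 0.202 for the nuclear respiratory chain subunits. It was 0.378 and 0.398 in those of 5 to 10% RP. The correlation of single-cell shares between the 36 pairs of genes, corrected for counting error, had a median of 0.782 in the WT library, from 0.594 (mt-Nd2 and mt-Co2) to 0.916 (mt-Nd1 and mt-Atp6), and of 0.842 in the AKO library, from 0.680 (mt-Nd2 and mt-Co2) to 0.919 (mt-Nd4 and mt-Atp6). Within 5 to 10% RP the medians were 0.671 and 0.768, and the ranges 0.405 to 0.870 and 0.332 to 1.03. The highest of these, for mt-Nd5 and mt-Co3 in the AKO library, is outside the range of a correlation and cannot be read. These correlations are descriptions over cells of 1 library each, which share its preparation and a common total.

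With other groups of transcripts the summed share of the 9 genes had corrected correlations, over the same cells, of -0.741 in the WT and -0.769 in the AKO library with RP share, of -0.645 and -0.666 with the nuclear respiratory chain subunits, and of 0.648 and 0.743 with the mitochondrial ribosomal RNAs. With the nuclear lncRNAs they were 0.298 and 0.466. All were nearer 0 in the 602 WT and 161 AKO cells within 5 to 10% RP, at -0.430 and -0.158 for RP share, -0.185 and -0.236 for the nuclear subunits, 0.442 and 0.458 for the ribosomal RNAs and -0.00101 and 0.144 for the lncRNAs.

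Over 520 genes outside the mitochondrial genome with at least 1000 UMIs in these cells of each library, the pattern most like that of the 9 genes was sought by the smaller of the corrected correlations in the 2 libraries. It named Gm5641, Hnrnpa3, Gm13340, Mir703 and Npm1, of which Gm13340 is a nuclear copy of mt-Co1. Values of 4 genes in the WT and 2 in the AKO library were over 1, outside the range of a correlation (1.04 and 3.91 for Gm5641), and cannot be read as likeness. Of the 5 genes, Npm1, a nucleolar protein, had 0.749 and 0.750 corrected and 0.654 and 0.680 as measured. By the measured correlation, which was added after the data had been seen, and with nuclear copies left out, Npm1 was followed by Pabpc1 (0.623 and 0.708), a poly(A)-binding protein, Ywhaz (0.547 and 0.632), Ptges3 (0.543 and 0.576) and Hnrnpa3 (0.541 and 0.583). The least like by the corrected values were Rpl5, Gm14633, Rpl9-ps4, Gm6988 and Gm7432, and 9 genes in the WT and 1 in the AKO library were under -1, among them Rpl5 in both and Rpl9-ps4 in the WT library, which cannot be read either. By the measured values the least like included Rps2-ps10 (-0.614 and -0.682), Rps18 (-0.612 and -0.665), Rack1 (-0.608 and -0.641) and Gm8730 (-0.604 and -0.680), of which Rps18 is a ribosomal protein that enters the RP share itself and Rack1 is a protein bound to the ribosome.

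In cells rich in collagen transcripts, which MEF feeders express, the 9 genes had 8795 CPM in the WT (46 cells) and 23938 CPM in the AKO library (31 cells), against 9979.8 and 15690.0 CPM in the other cells. mt-Co2 was higher in the collagen-rich cells of both libraries, 1.59-fold and 2.50-fold, and mt-Nd1 lower, with ratios of 0.414 and 0.788. The median depth of these cells was 8617 UMIs in the WT but 2274 UMIs in the AKO library, and their median RP share was 7.39% and 2.98%. Without them the AKO/WT ratio for the summed 9 genes was 1.57.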

How the data were processed

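The authors made inDrop count matrices with a published pipeline and deposited them as UMI counts that were not normalized. The submitters' processing notes name mm10 and Seurat 2.3.4. The aligner is not given in the sources used here. Identifiers were named through GENCODE M21 (GRCm38), in which 54079 of 54146 matched without version.

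Counts were summed over barcodes of at least 500 UMIs and scaled to CPM, with exact Poisson, exact binomial (Clopper-Pearson) and exact conditional intervals at 95%. PCR duplicates are collapsed by the UMIs, and the intervals cover counting error only or, for shares of cells, the sampling of cells within 1 library. Depth per library is given above. Genes were compared from 200 UMIs over both groups, with 0.5 added to each count, and called at 1.5-fold. Collagen-rich cells had at least 3 UMIs and 0.1% of UMIs on Col1a1, Col1a2 and Col3a1. Variances and correlations of shares were corrected by subtracting the counting variance. Shares at 500 UMIs follow the hypergeometric distribution. Named were the 9 genes, the other mitochondrial genes, the 2 largest and 2 smallest ratios per nuclear list, and the 5 most and 5 least like genes. The members and lists were chosen with earlier results of these data known. Doublets were kept, and Scrublet marked 30 WT and 10 AKO cells for an alternative. The calculations were tested on simulated data. Repeat elements were not analysed here. Tools were blastn 2.17.0, scanpy 1.11.5, scipy 1.17.1, numpy 2.4.6, pandas 2.3.3 and matplotlib 3.10.9 in Python 3.11.15. The correlation of 1 gene among those least like the 9 is not reported here.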

Additional observations from a re-analysis of the deposited data

Results flagged for a closer look

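The libraries went in opposite directions between cells of 10000 UMIs or more and cells of 5000 to 10000 UMIs. The summed level of the 9 genes in the deeper cells over the others was 0.872 in the WT library and 1.21 in the AKO library. Each of the 9 genes had a ratio under 1 in the WT and over 1 in the AKO library: mt-Nd1 0.873 and 1.38, mt-Nd2 0.796 and 1.14, mt-Nd4 0.865 and 1.16, mt-Nd5 0.686 and 1.07, mt-Co1 0.891 and 1.27, mt-Co2 0.979 and 1.11, mt-Co3 0.841 and 1.06, mt-Atp6 0.850 and 1.23, and mt-Cytb 0.985 and 1.28. The counting intervals of mt-Co2 (0.938 to 1.022) and mt-Cytb (0.920 to 1.05) in the WT and of mt-Nd5 (0.973 to 1.17) in the AKO library include 1. With 1 library each the difference was not tested. The median RP share was 9.64% in the deeper and 9.55% in the other WT cells, and 9.86% and 11.8% in the AKO cells. The 11 feeder markers summed to 4540 CPM in the deeper and 1540 CPM in the other WT cells, of which 9.90% and 1.82% were collagen-rich, and to 1255 and 1157 CPM in the AKO cells, of which 1.27% and 1.38% were. The part of RP share and feeder cells in these directions was not tested.

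Collagen-rich cells over other cells gave 0.881 in the WT and 1.53 in the AKO library for the 9 genes together, 0.915 and 1.52 for mt-Co1, 0.798 and 1.73 for mt-Co3 and 0.663 and 1.31 for mt-Atp6, again opposite directions that were not tested. The median RP share of the collagen-rich cells was 7.39% in the WT and 2.98% in the AKO library, against 9.52% and 10.6% in the other cells. The part of RP share in these directions was not tested. In cells of 500 to 2000 UMIs over cells of 5000 UMIs or more mt-Nd2 had 0.941 (0.823 to 1.07) in the WT and 1.13 (1.05 to 1.22) in the AKO library. These counting intervals overlap, the first includes 1, and the difference was not tested either.

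The barcodes under 500 UMIs, which were used only in the stacked figure and where the minimum was left out, held 9295 UMIs of the 9 genes in the WT and 24640 in the AKO library, 21170 and 36602 CPM. Both values are above the 9936 and 15821 CPM of the cells. mt-Co1, mt-Co2, mt-Atp6 and mt-Cytb made up 60.4% and 68.7% of these UMIs.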

How the results depend on the processing

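With 1 library a genotype, no alternative can show how much 2 cultures of a genotype differ, and the limits by depth are those of the counting intervals. Alternatives were run for the AKO/WT ratios and for the cells under 5% RP, the lncRNA groups and the shallow cells described here, and not for the other groups of cells, the spread or the correlations. None of those run reversed a result, and the count of genes past 1.5-fold was 4 or 5 of 9 throughout (3 at a limit of 2-fold). Within groups of like depth, however, mt-Co1 lost its call at 2000 to 10000 UMIs and mt-Nd2 changed direction, as given above. In cells of 5000 to 10000 UMIs split by RP share from 5% up, mt-Co1 kept its call and mt-Nd2 was not under 1. No paired analysis was possible because each group has 1 library. For sums over the 9 genes, the values below are those outside the counting interval of the value reported, and their cause was not tested. Of the ratios of single genes, 50 stayed within that interval and 31 did not, all in the direction reported. A lowest 25% by lncRNA share without a minimum of UMIs could not be formed in the AKO library, where over 25% of barcodes hold no such UMI.

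The AKO/WT ratio for the 9 genes together, 1.59, was 1.57 with a minimum of 1000 UMIs, 1.66 without a minimum, 1.57 without cells of a mitochondrial share over 0.2, 1.57 without collagen-rich cells, 1.91 as a mean of single-cell shares and 1.54 with median of ratios scaling. As that mean, mt-Co3 was also past 1.5-fold, at 1.80, and mt-Co2 was 3.32, mt-Cytb 2.83, mt-Atp6 2.34 and mt-Co1 1.99. Over all alternatives these genes ranged from 1.28 to 1.80, 2.21 to 3.32, 2.20 to 2.83, 2.03 to 2.34 and 1.64 to 1.99.

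Cells under 5% RP over other cells gave 2.86 in the WT and 3.61 in the AKO library. These were 2.44 and 3.40 with a minimum of 1000 UMIs, 2.62 and 3.11 without one, 2.97 and 3.81 with a denominator without mitochondrial genes, 3.16 and 4.003 as means of single-cell shares, 3.01 and 3.68 with nuclear copies added (chosen after seeing the data), 2.62 and 3.27 with a denominator without RP genes, 2.38 and 2.60 with an RP limit of 10%, and 1.74 and 2.84 in cells of 2000 UMIs or more. The AKO value alone left its interval, without cells of a high mitochondrial share (3.22) and also without collagen-rich cells (3.40).

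The highest over the lowest 25% by nuclear lncRNA share gave 2.58 and 3.34. These were 2.53 and 3.20 with a minimum of 1000 UMIs, 2.76 and 3.78 as means, 2.49 and 3.28 with nuclear copies added, and 2.48 and 2.77 in cells of 2000 UMIs or more. The WT value was 2.99 without a minimum and 2.82 without collagen-rich cells, and the AKO value 3.43 with a denominator without mitochondrial genes.

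Cells of 500 to 2000 UMIs over cells of 5000 UMIs or more gave 1.75 and 2.43. These were 1.67 and 2.25 without collagen-rich cells and 1.93 and 2.57 with nuclear copies added, and the AKO value was 2.12 without cells of a high mitochondrial share and 2.51 with a denominator without mitochondrial genes.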
